A study of Homo sapiens with 3 samples.

Results

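The miR-181 family was followed across 3 small RNA libraries of CAL-27, an established human cell line derived from a tongue squamous cell carcinoma. Its members were taken by name from the deposited table: the 4 guide strands hsa-miR-181a-5p, hsa-miR-181b-5p, hsa-miR-181c-5p and hsa-miR-181d-5p, and the 2 passenger strands hsa-miR-181a-3p and hsa-miR-181a-2-3p, written below without the species prefix. All 6 were among the 1149 listed miRNAs, and 3 of the 6 averaged at least 10 rpm over the libraries, where rpm is reads per 1000000 reads of a library's total. Those 3 were miR-181a-5p, miR-181b-5p and miR-181a-3p, and 208 miRNAs in all passed that filter.

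Each group was 1 library of total RNA from CAL-27 clones. CC cells were not irradiated. Mock cells received, by the series' design text, a single X-ray exposure of 2 Gy. RR was the radioresistant group, exposed to 2 Gy on each of 5 days, in 2 such cycles, and left for 2 weeks to recover each time. Whether a library holds 1 clone or a pool is not given by the labels. The treatment tag that names a 2 Gy dose stands on RR and the tag that names irradiation without a dose stands on Mock, so each direction given for these libraries refers to the label. As each group is 1 library, differences could not be checked against replicates and are printed without p-values. Intervals are exact 95% intervals that cover counting error only, and they compare libraries, not conditions. They take every read as independent, which PCR copies are not, so they may be too narrow. Each statement below that intervals overlap or hold 1 carries this limit.

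A miRNA is cut from a hairpin as a duplex of 2 strands. The guide strand is kept in an Argonaute protein and finds its target mRNAs mainly through its seed, the bases near the 5′ end, while most copies of the passenger strand are degraded. The miR-181 family is best known from lymphocytes, where it tunes antigen receptor signalling, and it has been described to repress the survival factor BCL2 and the DNA damage kinase ATM. The family comes from 6 hairpins on 3 chromosomes, arranged in pairs.

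The mature sequences, credited to RefSeq on GRCh38.p14, show why the 4 guides form a family while the 2 passengers stand outside it. They are written 5′ to 3′, with the seed (bases 2 to 8) in capitals.
miR-181a-5p: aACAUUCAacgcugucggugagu
miR-181b-5p: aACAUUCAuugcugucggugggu
miR-181c-5p: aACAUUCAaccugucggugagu
miR-181d-5p: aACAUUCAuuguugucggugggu
miR-181a-3p: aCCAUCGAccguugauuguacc
miR-181a-2-3p: aCCACUGAccguugacuguacc

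The 4 guides share the seed ACAUUCA, and no other listed miRNA had it. Counted from the 5′ end, miR-181b-5p differs from miR-181a-5p by A9U, C10U and A21G, all outside the seed. miR-181d-5p differs from miR-181b-5p by C12U alone. miR-181c-5p equals miR-181a-5p with 1 base removed, at position 11. The 2 passengers differ from each other by U5C, C6U and U16C, so that their seeds are unlike. The sources used here do not state how reads that fit several of these sequences were assigned, which leaves the split between near-identical guides uncertain.

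miR-181a-5p and miR-181b-5p are each made from a pair of loci, so their levels are sums over both. miR-181a-5p lies in the MIR181A1 hairpin at chr1:198859108-198859130 on the minus strand and in the MIR181A2 hairpin at chr9:124692480-124692502 on the plus strand. miR-181b-5p lies next to it at both places, at chr1:198858925-198858947 in MIR181B1 and at chr9:124693725-124693747 in MIR181B2, with 61 bases between the hairpins on chromosome 1 and 1158 bases on chromosome 9. In GENCODE release 29 the chromosome 1 pair is intronic in the non-coding host MIR181A1HG. The chromosome 9 pair is intronic in MIR181A2HG and lies antisense within an intron of NR6A1, which encodes an orphan nuclear receptor. The third pair, MIR181C and MIR181D on chromosome 19, gives miR-181c-5p at chr19:13874725-13874746 and miR-181d-5p at chr19:13874910-13874932, in an intron of NANOS3 on the same strand. The passengers, unlike the guides, tell the miR-181a loci apart: miR-181a-3p is cut from MIR181A1 at chr1:198859069-198859090 and miR-181a-2-3p from MIR181A2 at chr9:124692518-124692539.

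Library totals, recovered from the per-million scale, were 10473400 to 10769990 reads. Listed miRNAs took 16.3% of the reads of CC, 23.2% of those of Mock and 20.5% of those of RR. A count of 3 reads, used as the floor, corresponded to 0.279 rpm in CC, 0.282 rpm in Mock and 0.286 rpm in RR. All 5 squamous epithelial markers were present in each library, with summed levels of 28369 to 44137 rpm. Of the lymphoid and myeloid markers, relevant because miR-181 is abundant in lymphocytes, 4 of 5 were listed. miR-155-5p, which many cell types also make, gave nearly all of their level, and the remaining 3 summed to 0.0929 rpm in CC, 1.98 rpm in Mock and 0.0955 rpm in RR. The 3 erythroid markers summed to 9.47 rpm in CC, 408 rpm in Mock and 12.2 rpm in RR, and miR-486-5p made up most of this. Their part in the Mock values below was not tested.

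miR-181a-5p was the main guide in all 3 libraries. It stood at 400.2 rpm in CC (interval 388 to 412), 460.1 rpm in Mock (447 to 473) and 358 rpm in RR (347 to 369.8 rpm), from 4310, 4892 and 3751 reads. On the deposited scale the 3 intervals do not overlap, with Mock highest and RR lowest, and the whole span from lowest to highest was 0.36 on the log2 scale. Under the 3 other scalings tried CC was highest, with a log2 ratio of Mock over CC of -0.31 to -0.10, and RR stayed lowest. Its mean ranked 53rd of the 1149 miRNAs.

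miR-181b-5p, which shares both host transcripts with miR-181a-5p, had another order. It stood at 148 rpm in CC (141 to 155), 251 rpm in Mock (241 to 260.4 rpm) and 176 rpm in RR (168 to 184). On the deposited scale CC was thus the lowest library for miR-181b-5p, where RR was the lowest for miR-181a-5p. Under the 3 other scalings tried RR was lowest for miR-181b-5p too, with a log2 ratio of RR over CC of -0.13 to -0.07. In RNA from a culture, fewer cells that make a miRNA and fewer copies per cell cannot be told apart.

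The guides of the chromosome 19 pair were scarce. miR-181d-5p stood at 4.83 rpm in CC (3.61 to 6.33), 11.9 rpm in Mock (9.96 to 14.2) and 8.40 rpm in RR (6.74 to 10.4), from 52, 127 and 88 reads. Its CC interval lies below both others, and those of Mock and RR overlap. miR-181c-5p had 2 reads in CC, 1 read in Mock and 0 reads in RR, under the floor in every library, so no fold is given. The exact interval of its level in RR reaches 0.352 rpm.

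The passengers were measured well below their guide and followed, on the deposited scale, the order of miR-181b-5p, lowest in CC and highest in Mock. With median-ratio scaling CC was no longer lowest, at log2 ratios of RR over CC of -0.02 for miR-181a-3p and -0.08 for miR-181a-2-3p. Scaled without the 10 most abundant miRNAs the ratios were 0.05 and -0.02, and as a share of listed miRNA reads 0.03 and -0.03, in the same order. miR-181a-3p stood at 27.0 rpm in CC (24.0 to 30.3), 44.6 rpm in Mock (40.7 to 48.8) and 34.9 rpm in RR (31.4 to 38.6), with no overlap of the intervals. miR-181a-2-3p stood at 6.69 rpm in CC (5.23 to 8.42), 10.1 rpm in Mock (8.25 to 12.2) and 8.21 rpm in RR (6.57 to 10.1). All 3 intervals overlap for this passenger, from the MIR181A2 hairpin.

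**Figure D1:**
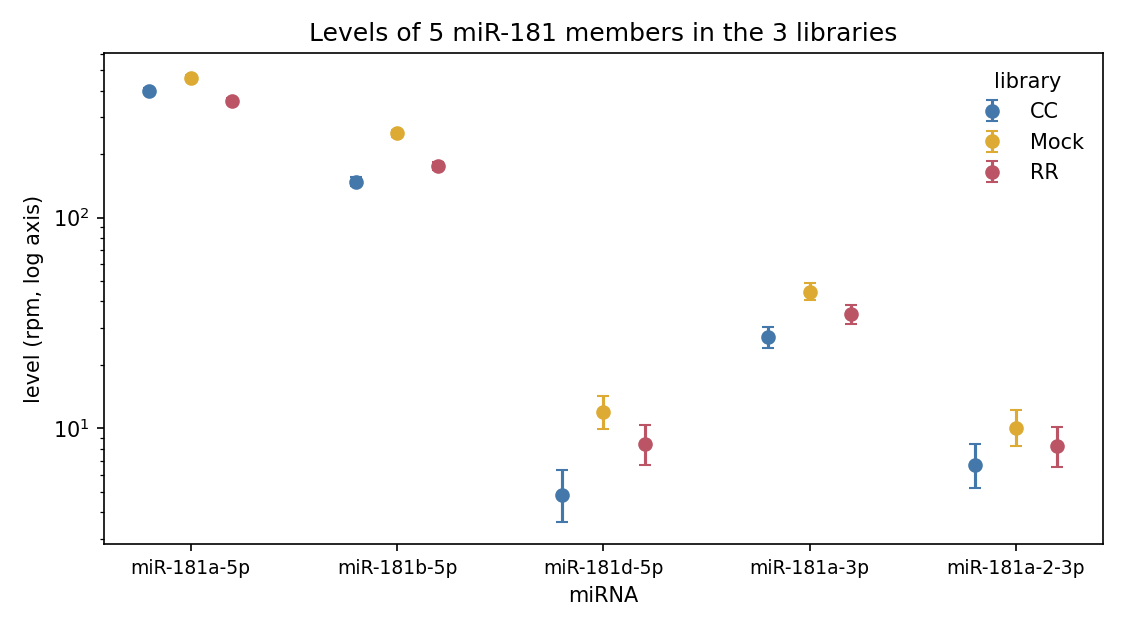
Levels of 5 members by library, in rpm on a log axis, with points for the libraries CC, Mock and RR and bars for exact 95% Poisson intervals. miR-181c-5p, with at most 2 reads in a library, is left out; on this deposited scale CC is the lowest library for 4 of the 5 members, and for miR-181a-5p RR is the lowest at 358 rpm.

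The other arms of the same hairpins were near the floor. miR-181b-3p had 4 reads in CC, 11 reads in Mock and 9 reads in RR, and miR-181d-3p had 1, 0 and 3. miR-181c-3p had 2 reads in CC, 2 reads in Mock and 11 reads in RR, a ratio of RR over CC of 5.66 with a counting interval of 1.23 to 52.5. This arm lies within 2 mismatches of miR-181a-3p over 21 bases, and its guide miR-181c-5p had 2, 1 and 0 reads in the same libraries. miR-181b-2-3p, the arm cut from MIR181B2, was looked for by name and was not among the listed miRNAs.

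RR over CC asks how the library labelled RR, the radioresistant group, differs from untreated cells. The summed guides were level between both libraries, while most miRNAs were higher in RR. The guide total was 553 rpm in CC (539 to 567) and 542 rpm in RR (528 to 557), a ratio of 0.981 with an interval of 0.945 to 1.02 that holds 1. On the log2 scale, after adding 1 rpm, this ratio was -0.03, beside a median of 0.36 over the 208 miRNAs, of which 182 were above 0. Divided by the median ratio of the libraries, which takes the median of all miRNAs to -0.02, the guide total stood at -0.41.

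Within that level total the members went different ways. miR-181a-5p was lower in RR, with a ratio of 0.895 (0.856 to 0.935), and 5 of the 208 miRNAs had a lower log2 ratio. This direction held under all 6 alternative scales, GC corrections and pseudocounts tried. miR-181b-5p had a ratio of 1.19 (1.11 to 1.27) and miR-181d-5p one of 1.74 (1.22 to 2.50). The passenger miR-181a-3p, at 1.29-fold (1.10 to 1.51), had a log2 ratio of 0.36, the median of all miRNAs. miR-181a-2-3p was at 1.23-fold, with an interval of 0.888 to 1.70 that holds 1. As given with the levels, miR-181b-5p and both passengers turned below 0 with median-ratio scaling, so for them only the difference from miR-181a-5p is free of the scale. Of the 3 members that passed the filter 0 differed by 2-fold or more, where 1.44% of the 208 miRNAs did.

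Mock over CC sets, by the series' design text, a single exposure against no exposure. On the deposited scale the 5 members above the floor were higher in the library labelled Mock, miR-181a-5p least and miR-181d-5p most. So were 136 of the 208 miRNAs (65.4%), whose median log2 ratio was 0.28. The guide total was 723 rpm in Mock (707 to 739), 1.31-fold that of CC (1.26 to 1.35), or 0.39 on the log2 scale. As a share of the listed miRNA reads the total turned to -0.12. miR-181a-5p was 1.15-fold higher (1.10 to 1.20), miR-181b-5p 1.70-fold (1.59 to 1.80), miR-181a-3p 1.65-fold (1.42 to 1.92), miR-181a-2-3p 1.51-fold (1.11 to 2.06) and miR-181d-5p 2.47-fold (1.78 to 3.49). Of the 3 members that passed the filter 0 were past 2-fold, beside 15.9% of the 208 miRNAs. At 1.5-fold, miR-181b-5p and miR-181a-3p passed, as did 46.2% of the 208. miR-181d-5p was past 2-fold at 1.15 on the log2 scale but has a mean of 8.39 rpm, just under the filter.

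The direction for miR-181a-5p in Mock over CC rests on the scale. Its log2 ratio of 0.20, beside a median of 0.28 over all miRNAs, became -0.10 with median-ratio scaling and -0.31 as a share of the listed miRNA reads. miR-181b-5p (0.76), miR-181d-5p (1.15), miR-181a-3p (0.70) and miR-181a-2-3p (0.53) stayed above 0 under both, at 0.25, 0.70, 0.21 and 0.07 as a share of the listed miRNA reads. These rescaled values carry no interval, so the small ratios of the passengers are not shown to differ from 0.

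Ratios to Mock also moved with the GC content of a miRNA, and the members lie in the middle of that range. Across the 208 miRNAs, which are not independent replicates, log2 ratios and GC content had a Spearman correlation of -0.55 in Mock over CC, 0.60 in RR over Mock and 0.05 in RR over CC. GC content was 43.5% in miR-181d-5p, 47.8% in both miR-181a-5p and miR-181b-5p, 50% in miR-181a-3p and 54.5% in miR-181a-2-3p. With a linear GC trend removed, Mock over CC was 0.14 for miR-181a-5p, 0.69 for miR-181b-5p, 0.96 for miR-181d-5p and 0.66 for miR-181a-2-3p on the log2 scale. miR-181a-5p and miR-181b-5p have equal GC content and equal length, 23 bases, so such a trend moves both alike and leaves the gap between them as it was.

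**Figure D2:**
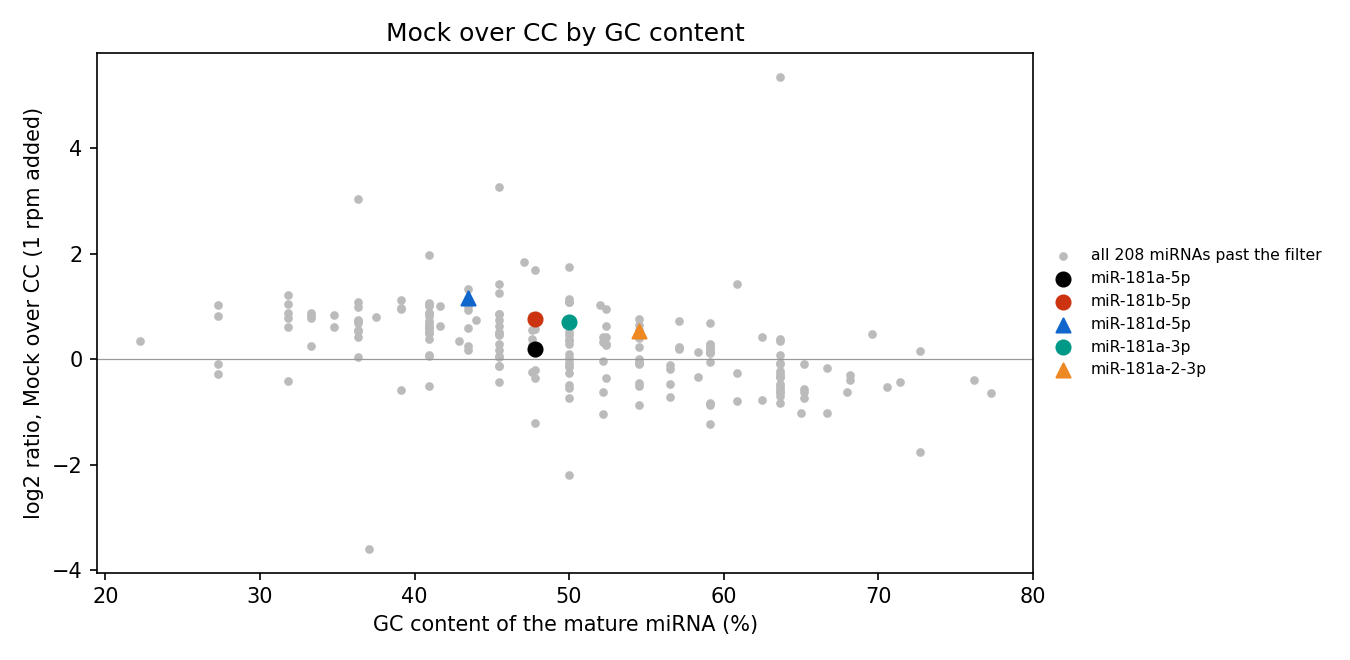
Log2 ratio of Mock over CC (1 rpm added) against GC content of the mature miRNA in percent; grey points are the 208 miRNAs that averaged at least 10 rpm, coloured points the members, and triangles the members under that filter. miR-181a-5p (0.20) and miR-181b-5p (0.76) sit at the same GC content of 47.8%.

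RR over Mock compares, by the series' design text, repeated with single exposure. On the deposited scale the 5 members above the floor lay below 0, while 113 of the 208 miRNAs (54.3%) lay above it. The guide total was 1.33-fold lower in RR (1.29 to 1.38). Each of the 5 members above the floor was lower, from 1.23-fold for miR-181a-2-3p (interval 0.914 to 1.65, which holds 1) to 1.43-fold for miR-181b-5p (1.34 to 1.51). miR-181a-5p and miR-181a-3p were each 1.28-fold lower, and miR-181d-5p was 1.42-fold lower (1.07 to 1.89). On the log2 scale the 3 members that passed the filter had a median of -0.36. All 208 miRNAs had a median of 0.06 and a lower quartile of -0.35. None of these 3 was past 2-fold, a count of 0 beside 13.0% of all miRNAs. RR over Mock and Mock over CC share the Mock library, so that its values enter both.

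**Figure D3:**
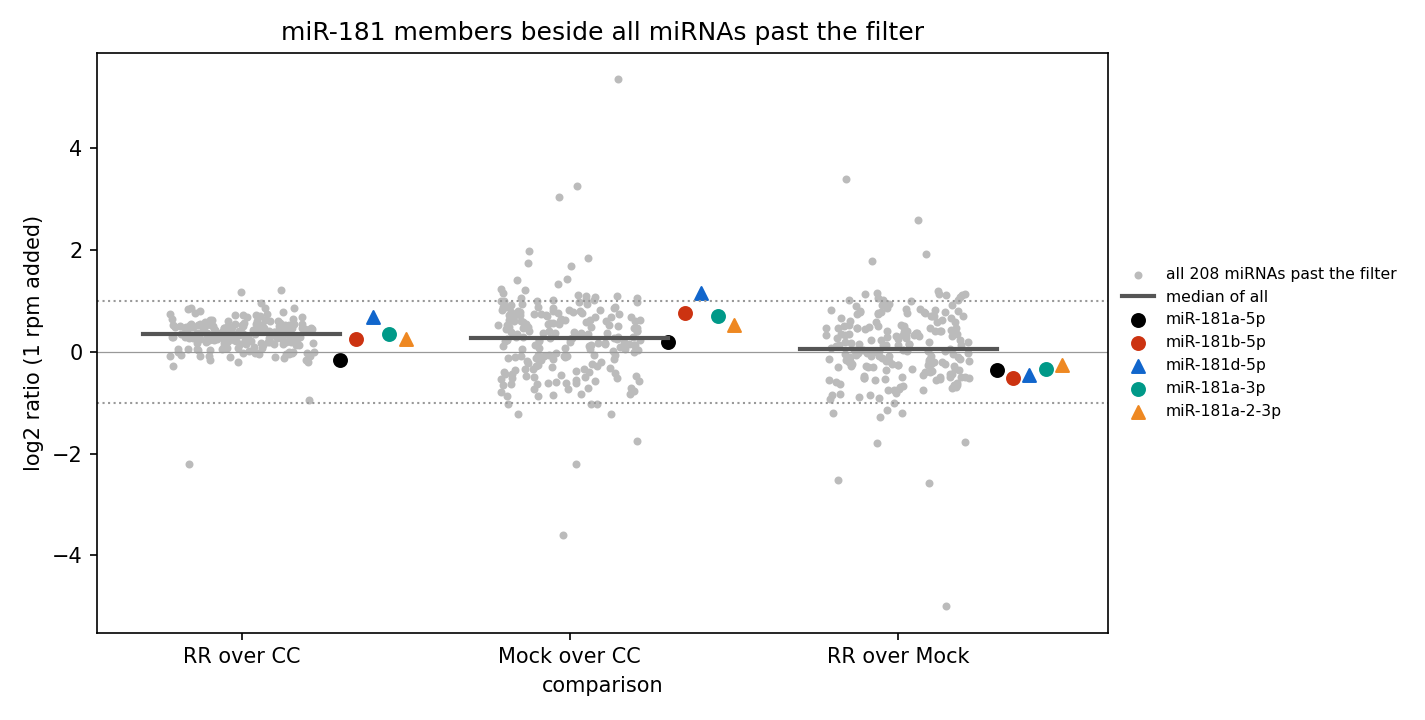
Log2 ratios (1 rpm added) for the 3 comparisons; grey points are the 208 miRNAs past the filter, thick bars their medians, dotted lines 2-fold, circles the members past the filter and triangles those under it. In RR over CC, miR-181a-5p at -0.16 lies apart from the other members, which range from 0.25 to 0.69, while in RR over Mock all 5 lie between -0.51 and -0.26.

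Ratios between members inside one library do not depend on the scale, and CC stood furthest apart in the share of miR-181a-5p among the guides. miR-181a-5p made up 72.4% of the guide reads in CC (71.2% to 73.5%), 63.6% in Mock (62.6% to 64.7%) and 66.0% in RR (64.8% to 67.3%). miR-181b-5p took 26.7%, 34.7% and 32.4%, and miR-181d-5p 0.873%, 1.65% and 1.55%. There were 2.71 reads of miR-181a-5p per read of miR-181b-5p in CC (2.55 to 2.87), 1.83 in Mock (1.75 to 1.92) and 2.04 in RR (1.93 to 2.16). This ratio was 1.33-fold lower in RR than in CC (1.22 to 1.44) and 1.47-fold lower in Mock than in CC (1.37 to 1.59). RR and Mock lay closer, 1.11-fold apart (1.03 to 1.20).

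The ratio of guide to passenger was likewise highest in CC. CC held 11.9 reads of miR-181a-5p per read of its 2 passengers together (10.7 to 13.3), Mock 8.42 (7.72 to 9.19) and RR 8.32 (7.54 to 9.19). The ratio was 1.43-fold lower in RR than in CC (1.23 to 1.66) and 1.41-fold lower in Mock (1.23 to 1.62), and between RR and Mock it was 0.988 (0.866 to 1.13), an interval that holds 1. The share of the passengers that came from MIR181A1, by contrast, was 80.2% in CC (75.7% to 84.1%), 81.6% in Mock (78.2% to 84.7%) and 80.9% in RR (77.0% to 84.5%). The 3 intervals overlap, and a ratio of miR-181a-3p to miR-181a-2-3p in RR over CC between 0.729 and 1.51 is within counting error. Since all of these contrasts with CC use the same library, they are not separate observations of a difference.

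**Figure D4:**
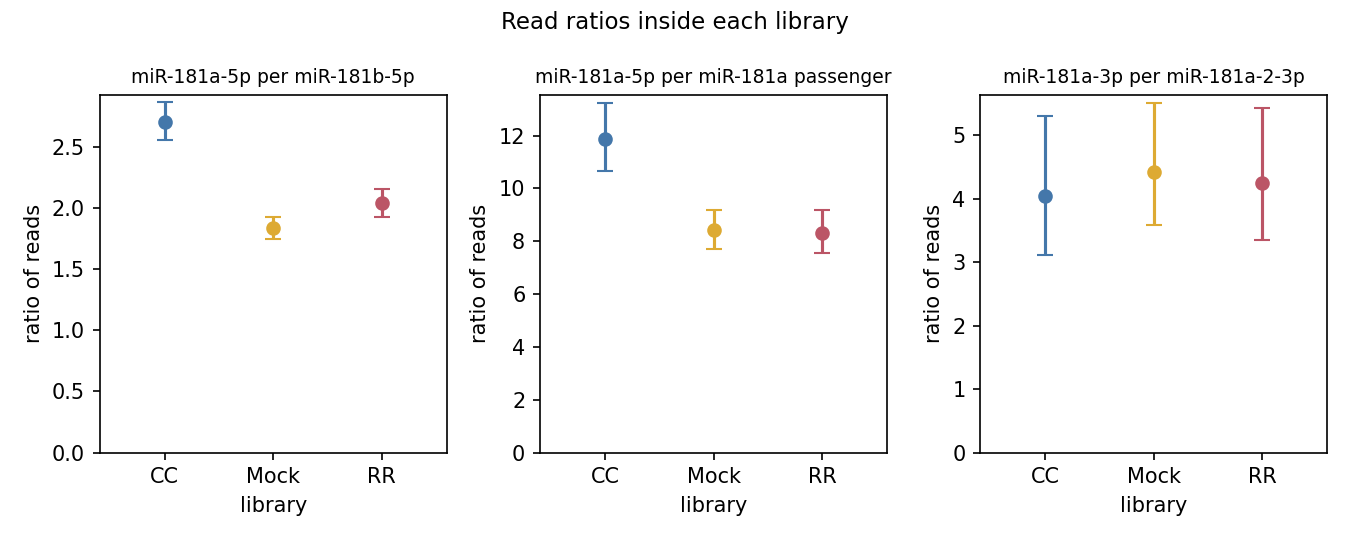
Ratios of reads inside each library, with exact 95% intervals: miR-181a-5p per miR-181b-5p, miR-181a-5p per read of both miR-181a passengers, and miR-181a-3p per miR-181a-2-3p. CC is highest in the first 2 panels, at 2.71 and 11.9, and in the last panel the intervals of all libraries overlap.

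Larger shifts between arms or within a seed family occurred elsewhere among the listed miRNAs. The arms were compared by name, so that for miR-181a the 5p strand of both hairpins was set against miR-181a-3p of MIR181A1 alone. Of 38 such pairs with both arms past the filter, 5 had a larger shift of the log2 ratio of 5p to 3p in RR over CC than miR-181a (-0.52, with a median size of 0.19) and 14 had a larger one in Mock over CC (-0.50, median size 0.40). With both passengers in the denominator the miR-181a shifts were -0.50 and -0.48, and 5 and 15 pairs had larger ones. Of 89 pairs of miRNAs that share a seed and pass the filter, 15 moved apart more than miR-181a-5p and miR-181b-5p in RR over CC (-0.41, median size 0.14). Of these 15, 8 hold let-7c-5p, and 7 of the 81 pairs without it moved apart more. The count was 32 of 89 in Mock over CC (-0.56, median size 0.44), and 31 of the 81 pairs without let-7c-5p. In RR over Mock it was 73 of 89 (0.15, median size 0.50). Pairs that share a member are not independent of each other.

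By summed level the miR-181 guides ranked 32nd of 165 seed families that averaged at least 10 rpm. The family took 0.340% of the listed miRNA reads in CC (0.332% to 0.349%), 0.312% in Mock (0.305% to 0.319%) and 0.264% in RR (0.258% to 0.271%), so that as a share of the miRNA reads CC was highest and RR lowest. Its RR over CC ratio ranked 150th of the 165 from the top, its Mock over CC ratio 65th and its RR over Mock ratio 136th. For RR over CC the let-7 seed family stood at 1.47-fold (1.46 to 1.47), the miR-30 family at 1.10-fold (1.08 to 1.12) and the family of miR-200b, miR-200c and miR-429 at 1.21-fold (1.20 to 1.22), each with an interval above that of the miR-181 guides. For Mock over CC these 3 families stood at 1.72-fold, 1.18-fold and 1.21-fold, with the miR-181 guides between the first and the others.

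The miRNAs nearest to the guide total in pattern were sought among the 91 others that averaged at least 100 rpm, by the distance between their pairs of log2 ratios (Mock over CC and RR over CC) over the 3 libraries. miR-92a-1-5p, a passenger strand of the miR-17-92 cluster, was nearest, at 115 rpm in CC, 155 rpm in Mock and 121 rpm in RR, a distance of 0.11. miR-148b-3p followed at 0.21, with 95.9, 125 and 109 rpm, and miR-15b-5p at 0.22, with 120.3, 183 and 114 rpm. With 3 libraries many miRNAs take such a pattern, and this likeness is a description only.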

How the data were processed

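Per the labels' protocols, total RNA of CAL-27 clones was ligated to adapters, amplified by PCR, size-selected and read on an Illumina NovaSeq. Bowtie and GRCh38 are named in the submitters' processing notes without a role; the sources used here state no trimming, miRNA reference or rule for multiply matching reads. The deposited values, called TPM by the authors, behave as RPM: all 1149 values of each library (100%) were whole multiples, within 0.01 of a read, of 1 step per library, so reads and totals were recovered from it. Total depth was 10769990 reads in CC, 10632785 reads in Mock and 10473400 reads in RR.

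The treatment tags tie columns to libraries, and titles give the groups. With 1 library per group no test or count model was run. Levels carry exact Poisson intervals, and ratios and shares Clopper-Pearson intervals; ratios of ratios are conditional odds ratios with exact intervals. Log2 ratios add 1 rpm, counts use averages of at least 10 rpm and 2-fold. Named miRNAs were the members, the other arms of their hairpins, rows sharing their seed, the 3 nearest patterns, 3 seed families and the highest of each marker list. let-7c-5p and the arms of miR-210, miR-296, miR-99b and let-7b fall outside this rule and were named after their values were seen. The members and lists were chosen with earlier results of these data known. Alternatives were 2 pseudocounts, 3 scalings, a GC trend, 3 filters and a 1.5-fold threshold. Summed over CC, Mock and RR in turn, endothelial markers gave 55.2, 66.9 and 81.9 rpm, neural markers 567, 784 and 697 rpm, and muscle markers 341, 345 and 408 rpm. Most of the muscle sum was miR-1-3p, and the rest of that list gave 2.79, 26.1 and 4.49 rpm. Sequences of all 6 members were found in RefSeq and equal the table's. The counting was tested on simulated data. Scripts ran in Python 3.11.15 with scipy 1.17.1, numpy 2.4.6, matplotlib 3.10.9 and pandas 2.3.3.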

Additional observations from a re-analysis of the deposited data

How the results depend on the processing

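No paired analysis was possible because each group is 1 library. The guide total depended on the scale. Its log2 ratio in RR over CC (-0.03) was -0.41 with median-ratio scaling, -0.35 with the 10 most abundant miRNAs left out of the scaling and -0.36 as a share of listed reads. In Mock over CC (0.39) it was 0.083, 0.037 and -0.12 under these, and 0.32 with the GC trend removed. In RR over Mock (-0.41) it was -0.49 with median-ratio scaling, -0.24 as a share and -0.34 with the GC trend removed. Both pseudocounts left the guide total within its counting interval. Members past 2-fold in Mock over CC went from 0 to 1, miR-181d-5p, with a mean of 1 rpm or more or with no filter. Past 2-fold were 14.6% of the 390 miRNAs with that mean and 5.22% of all 1149. At 1.5-fold the members were 2, miR-181b-5p and miR-181a-3p, and 46.2% of the 208 miRNAs passed that threshold. In RR over CC and RR over Mock the count was 0 under each alternative run. At 1.5-fold, 14.4% of the 208 miRNAs passed in RR over CC and 36.5% in RR over Mock. For single members, 64 of 90 values under the alternatives stayed within their counting interval. In RR over Mock all 5 members above the floor stayed below 0 under the 6 alternatives run, from -0.59 to -0.11. The few reads of miR-181c-5p limit any statement on it.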

Other observations

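Among the 38 pairs of 5p and 3p arms past the filter, matched by name and chosen here after their values were seen, 2 had a 5p to 3p balance that was further below CC in RR than that of miR-181a. The log2 ratio of 5p to 3p of miR-210, the hypoxia-induced hairpin, was -1.97 (CC), -2.89 (Mock) and -2.76 (RR), and that of miR-296 was -1.14, -1.78 and -1.76. For miR-181a-5p over miR-181a-3p the values were 3.84, 3.34 and 3.32, and over both passengers together 3.53, 3.05 and 3.03. In each of these 3 pairs of arms Mock and RR lay closer to each other than to CC. CC also stood apart in further pairs of arms. Among them were miR-99b in the same direction, at 5.63 beside 5.02 and 5.16, and let-7b in the other direction, at 4.49 beside 5.09 and 5.04. These contrasts share the CC library, and none has a replicate.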
